A study of Danio rerio with 10 samples.

Results

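The small RNA of sorted zebrafish neutrophils was compared with that of sorted zebrafish keratinocytes, 1 library against 1 library. The table lists 431 microRNA (miRNA) entries, each an annotated hairpin gene. An entry entered the comparison when it had at least 10 counts in at least 1 of the 2 sorted libraries, which 100 of the 431 entries did. Of these 100, 63 reached the minimum in both libraries, 11 in the neutrophil library alone and 26 in the keratinocyte library alone. Another 93 entries were counted in a sorted library but stayed under the minimum, and 238 had 0 counts in both.

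The study concerned the microRNA miR-199, Cdk2 and the migration of neutrophils, and its small RNA libraries profile which microRNAs sorted cells carry. All 5 small RNA libraries came from wild-type zebrafish of the AB background at 3 days post fertilization. The neutrophil library (lyzC+) and the keratinocyte library (Krt4+) came from cells sorted by fluorescence (FACS) out of transgenic lines in which neutrophils or apical keratinocytes, the outermost skin cells, carry GFP. The whole-embryo libraries, 3 in number and not sorted, are given here for context only. How many embryos or sorted cells went into a library is not given in the sources used here. Each sorted group is 1 library, so no test was possible, no p-value is given, and each interval is a 95% interval for counting error only.

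A microRNA is cut from a hairpin transcript into a short RNA that guides Argonaute proteins to matching sites in messenger RNAs and lowers their output. Many microRNAs are restricted to cell lineages. In vertebrates miR-223 and miR-142 are known as microRNAs of blood cells, miR-223 above all of granulocytes, while miR-203, miR-205 and the miR-200 family are known from skin and other epithelia. The miR-183, miR-96 and miR-182 hairpins lie together in 1 cluster that is best known from sensory hair cells and photoreceptors.

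The neutrophil library held 20864 counts and the keratinocyte library 86279, against 867672 to 1170260 in the whole-embryo libraries. In CPM, the count divided by its library's total and multiplied by 1000000, 1 count is worth 47.9 CPM in neutrophils and 11.6 CPM in keratinocytes. A count of 0 is read as at most 3 counts, which is 144 CPM in neutrophils and 34.8 CPM in keratinocytes. The 100 entries held 99.3% of the neutrophil counts and 99.7% of the keratinocyte counts. Just inside the minimum lay dre-mir-1388 with 10 neutrophil and 6 keratinocyte counts and dre-mir-460 with 4 and 10. Just outside lay dre-mir-489 with 9 and 9 and dre-mir-21-2 with 8 and 0.

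The libraries differed in how evenly their counts were spread. In keratinocytes the most abundant entry alone, dre-mir-182, took 43.8% of the counts and the first 5 took 73.9%. In neutrophils the most abundant entry, mir223, took 12.9% and the first 5 took 47.9%. The neutrophil order was mir223, dre-mir-10c, dre-mir-205, dre-mir-92a-1 and dre-mir-10a. The keratinocyte order was dre-mir-182, dre-mir-10c, dre-mir-10a, dre-mir-205 and dre-mir-143, so dre-mir-10c, dre-mir-10a and dre-mir-205 were among the first 5 of both.

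Both labels were set beside marker microRNAs. The neutrophil markers mir223, dre-mir-142a and dre-mir-142b summed to 144795 CPM in the neutrophil library, 1008 CPM in the keratinocyte library and 240 to 278 CPM in whole embryo. The keratinocyte marker dre-mir-182 stood at 437986 CPM in keratinocytes, 66766 CPM in neutrophils and 111901 to 151143 CPM in whole embryo. This marker was named with results of these libraries known, so it is no independent check of the keratinocyte label. The remaining epithelial markers, of the miR-203, miR-205, miR-200, miR-141 and miR-429 families, went the other way as a sum, with 98783 CPM in neutrophils against 63005 CPM in keratinocytes, a log2 ratio of 0.65 that turned to -0.55 with TMM and -0.20 with median-of-ratios. That sum rested on dre-mir-205, and the other epithelial markers were each lower in neutrophils, dre-mir-429b only by a bound whose interval held 1. None of the neutrophil markers was at 0 in keratinocytes, and dre-mir-429b was the epithelial marker at 0 in neutrophils. Whether skin RNA contributed to the neutrophil library was not tested.

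Ratios below are neutrophil CPM over keratinocyte CPM, and an entry was called when the ratio, or its bound where 1 library had 0 counts, was at least 4-fold. Of the 100 entries, 27 were at least 4-fold higher in neutrophils (27% of those compared) and 8 at least 4-fold higher in keratinocytes (8%), 35 in all (35%). The median log2 ratio was 0.69, with quartiles at -0.39 and 2.11 and a range from -3.84 to 9.12. The ratio was above 1 for 64 entries and below 1 for 35. The counting interval lay wholly above 1 for 49 entries, wholly below 1 for 21 and across 1 for 30. The called neutrophil-high entries held 36.9% of the neutrophil counts but 2.85% of the keratinocyte counts. The called keratinocyte-high entries held 48.4% of the keratinocyte counts and 7.34% of the neutrophil counts.

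The split between the directions depends on the scaling. Leaving dre-mir-182 and mir223 out of the totals lowered every log2 ratio by 0.52 and gave 22 entries higher in neutrophils and 13 higher in keratinocytes. TMM (trimmed mean of M-values) scaling lowered them by 1.20 and gave 14 and 19. Median-of-ratios scaling lowered them by 0.85 and gave 17 and 16. The share of calls in the neutrophil direction was 77.1% with library totals, 42.4% with TMM and 51.5% with median-of-ratios. All 35 called entries kept their direction under the 4 other scalings tried, and 14 of the 27 neutrophil-high calls and 8 of the 8 keratinocyte-high calls held under every one of them. The other 13 neutrophil-high calls fell under 4-fold with TMM: dre-mir-92a-1, dre-mir-92a-2, dre-mir-126a, dre-mir-192, mir196b, mir196c, dre-mir-1388, dre-mir-107a, dre-mir-15b, dre-mir-456, dre-mir-210, dre-mir-16a and dre-mir-301b. Of these, mir196c, dre-mir-456, dre-mir-210, dre-mir-16a and dre-mir-301b stayed under 4-fold in all 4. Ratios between entries of the same library do not change with the scaling and are given below where they bear on a result. Comparisons with whole embryo below use library totals and can shift too. The TMM factors were 1.39 for neutrophils, 0.604 for keratinocytes and 0.995 to 1.11 for whole embryo. TMM thus lowers neutrophil values and raises keratinocyte values against whole embryo.

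The difference in depth also shaped the count. Because the keratinocyte library was 4.14 times as deep, the smallest ratio that an entry reaching the minimum in neutrophils alone could have was 4.60, so all 11 such entries had to be called. They were dre-mir-142b, dre-mir-146b, mir222b, dre-mir-194a, dre-mir-27e, dre-mir-731, dre-mir-155, dre-let-7j, dre-mir-92a-2, dre-mir-1388 and mir196c. Among the other 89 entries, 16 were called higher in neutrophils (17.98%) and 8 higher in keratinocytes (8.99%). These 89 are not free of the minimum, since 26 of them reached it in keratinocytes alone and could not be called higher in neutrophils. Of the 26, 6 were called higher in keratinocytes: dre-mir-200b, dre-mir-200c, dre-mir-141, mir96, dre-mir-725 and dre-mir-22b. Of the 63 entries that reached the minimum in both libraries, 16 were called higher in neutrophils and 2 higher in keratinocytes. In the other direction, an entry with 0 neutrophil counts needs at least 50 keratinocyte counts to reach a 4-fold bound, and the largest such entry, dre-mir-2184, had 35.

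**Figure D1:**
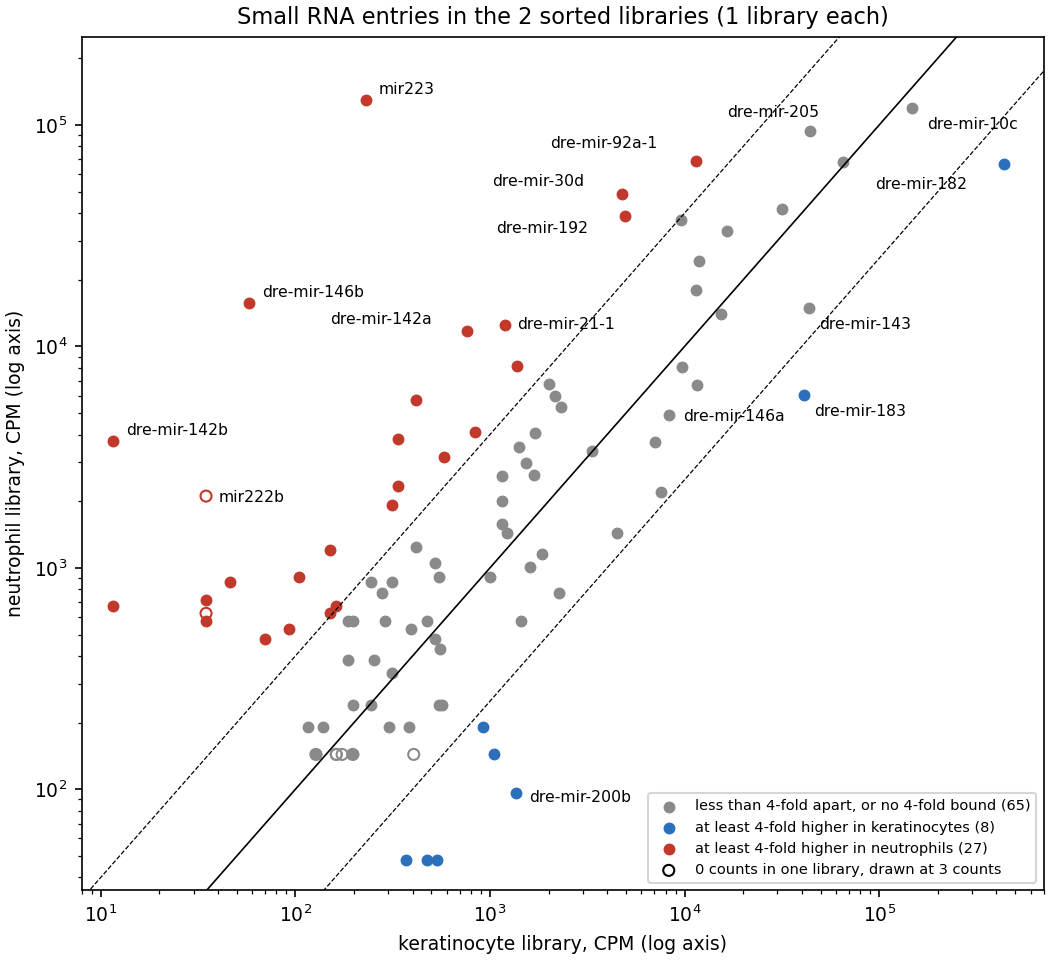
Each point is 1 of the 100 entries, with its keratinocyte CPM on the horizontal log axis and its neutrophil CPM on the vertical log axis; the solid line marks equal CPM and the dashed lines a 4-fold difference. The 27 red points above the upper dashed line include mir223 at 129266 CPM in neutrophils and 232 CPM in keratinocytes, and the 8 blue points below the lower one include dre-mir-182.

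The highest ratios were those of the blood cell microRNAs mir223, dre-mir-142b and dre-mir-146b. Other entries, such as mir222b and dre-mir-194a, ranked above the blood cell microRNAs dre-mir-155 and dre-mir-142a. Of the 9 entries listed as myeloid or blood-enriched, 6 entered the comparison and 5 of these were called higher in neutrophils, against 27 of all 100. Of the 5, dre-mir-142b, dre-mir-146b and dre-mir-155 entered through the neutrophil library alone and so had to be called. The list had a median log2 ratio of 6.12 (dre-mir-155 taken at its bound) against 0.69 over all 100 entries. The same 3 entries raise this median, since the minimum admitted them only where they were high in neutrophils. The members that reached the minimum in keratinocytes, mir223, dre-mir-142a and dre-mir-146a, had log2 ratios of 9.12, 3.95 and -0.76. Together the list took 16.6% of the neutrophil counts and 0.950% of the keratinocyte counts. The members that did not enter were dre-mir-144 with 3 and 7 counts, mir150 with 6 and 4, and dre-mir-451 with 0 and 2. The first and last of these are microRNAs of red blood cells.

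The entry mir223 (chromosome 5, 22234407 to 22234505, minus strand, in no gene model of the deposited tables, as for the entries below unless a gene is given; coordinates are those of GRCz11) had 2697 neutrophil counts and 20 keratinocyte counts. That is 129266 CPM (124433 to 134238) against 232 CPM, a ratio of 558 with an interval of 360 to 914. In whole embryo it stood at 94.0, 125 and 93.4 CPM. The neutrophil value lay far above all 4 other libraries, and the keratinocyte value lay above all 3 whole-embryo values. In mammals miR-223 restrains granulocyte production and activation. On a log2 scale its ratio lay 8.44 above that of the median entry, a quantity that no scaling changes. Within the neutrophil library mir223 had 1.94 counts for each count of dre-mir-182 (1.81 to 2.07), whereas in the keratinocyte library the quotient was 0.000529 and in whole embryo 0.000678 to 0.000834.

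Both miR-142 hairpins, which mammals express in nearly all blood cells, were higher in neutrophils. The entry dre-mir-142a (chromosome 5, 3170736 to 3170826) had 246 neutrophil and 66 keratinocyte counts, 11791 against 765 CPM, a ratio of 15.4 (11.7 to 20.6). The entry dre-mir-142b (chromosome 15, 15383898 to 15383983) had 78 neutrophil counts and 1 keratinocyte count, a ratio of 323 with an interval of 56.2 to 12901. Whole embryo held 119 to 149 CPM of the first and 26.5 to 34.4 CPM of the second. The 2 hairpins were not in a fixed proportion: dre-mir-142b had 0.317 counts per count of dre-mir-142a in neutrophils (0.243 to 0.411), 0.218 to 0.290 in whole embryo and 0.0152 in keratinocytes (0.000378 to 0.0874). The neutrophil and keratinocyte intervals of this quotient did not overlap, and the neutrophil interval overlapped those of whole embryo.

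The miR-146 hairpins parted company. In mammals miR-146 is induced by NF-kB and dampens Toll-like receptor signalling. The entry dre-mir-146b (chromosome 21, 41639979 to 41640058) had 326 neutrophil and 5 keratinocyte counts, 15625 against 58.0 CPM, a ratio of 270 (114 to 836). The entry dre-mir-146a (chromosome 13, 11822170 to 11822283) had 102 neutrophil and 715 keratinocyte counts, 4889 against 8287 CPM, a ratio of 0.590, and keratinocytes were 1.70-fold higher (1.38 to 2.11). Their log2 ratios lay 8.84 apart, the widest range among the 22 families with at least 2 hairpins compared. The minimum shaped this order, since dre-mir-146b entered through the neutrophil library alone and its ratio could not be under 4.60. The families next in range, miR-27, miR-222, miR-142 and let-7, each hold such an entry too. In neutrophils dre-mir-146b outnumbered dre-mir-146a by 3.196 to 1 (2.55 to 4.03), in keratinocytes it made 0.00699 counts per count of dre-mir-146a, and in whole embryo 0.158 to 0.196. Both sorted libraries held more dre-mir-146a than whole embryo did, where its level was 709 CPM ± 231 (SD, n = 3).

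The entry dre-mir-155, known in mammals from activated leukocytes, had 13 neutrophil counts, 623 CPM, and 0 keratinocyte counts. Against 3 keratinocyte counts it was at least 17.9-fold higher in neutrophils, a bound that leaves out error in the neutrophil count, and its interval began at 12.6. Whole embryo held 11.5 to 29.2 CPM. The entry mir222b had 44 neutrophil counts, 2109 CPM, and 0 keratinocyte counts, at least 60.7-fold higher by the same bound with an interval beginning at 47.3, and whole embryo held 4.27 to 6.92 CPM. Its paralog dre-mir-222a was far more abundant and far less uneven, with 508 and 1027 counts and a ratio of 2.05. In mammals miR-221 and miR-222 lower the cell cycle inhibitor p27. In neutrophils mir222b made 0.0866 counts per count of dre-mir-222a (0.0622 to 0.118), in whole embryo 0.000384 to 0.000542.

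**Figure D2:**
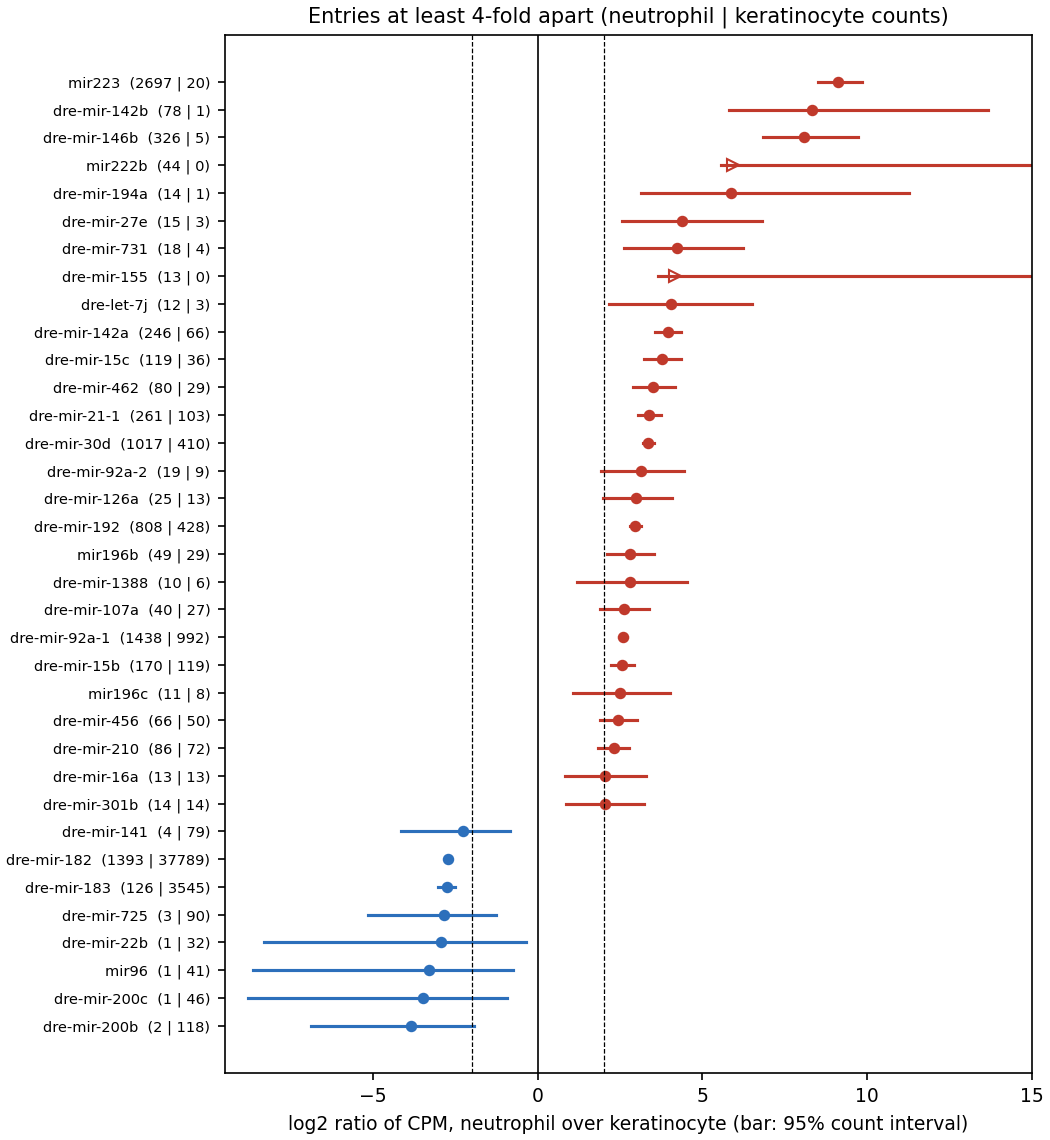
Log2 ratios of the 35 called entries with their 95% counting intervals as bars; the counts of both libraries stand beside each name, triangles mark bounds where keratinocytes had 0 counts, and dashed lines mark 4-fold. The intervals of mir223, dre-mir-142b and dre-mir-146b lie farthest right, and the widest bars belong to entries with 0 or 1 counts in 1 library, those at 0 running past the edge.

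Beyond the blood list, the neutrophil-high calls with many counts were dre-mir-92a-1, dre-mir-30d, dre-mir-192, dre-mir-21-1 and dre-mir-15b. The entry dre-mir-92a-1, of the miR-17 to miR-92 cluster known for promoting cell proliferation, had 1438 and 992 counts, 68923 against 11498 CPM, a ratio of 5.995 (5.53 to 6.51). Its log2 ratio of 2.58 became 1.38 with TMM and 1.73 with median-of-ratios, under 4-fold. The 6 hairpins of its cluster together had 1444 and 999 counts, so nearly all counts of the cluster were those of dre-mir-92a-1. Whole embryo held 11645 to 24763 CPM of dre-mir-92a-1. The neutrophil value lay above all 4 other libraries and the keratinocyte value, with library totals, just below whole embryo. All 9 compared entries of the miR-17 to miR-92 clusters and their paralogs had ratios above 1 with library totals, 5 of the 9 with TMM and 7 with median-of-ratios, against 64, 38 and 47 of all 100 entries. With library totals 2 of 9 were at least 4-fold higher, against 27 of 100, and with TMM 0 of 9, against 14 of 100. Of the 2, dre-mir-92a-2 (19 and 9 counts) entered through the neutrophil library alone. With library totals its call and its side of 1 were therefore fixed by the minimum. The median log2 ratio was 1.58 against 0.69 over all entries. The list took 14.4% of the neutrophil and 3.92% of the keratinocyte counts. Most of the neutrophil share was dre-mir-92a-1 (6.89%), dre-mir-92b (3.74%) and dre-mir-25 (3.32%). The entry dre-mir-92b, with 780 and 830 counts, missed the 4-fold threshold at 3.89 (3.52 to 4.29).

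The entry dre-mir-30d (chromosome 16, 25341416 to 25341543) had 1017 and 410 counts, 48744 against 4752 CPM, a ratio of 10.3 (9.14 to 11.5). Its values in whole embryo were 11722 to 14501 CPM, between the 2 sorted libraries. Its neighbour dre-mir-30b had 18 and 27 counts and a ratio of 2.76, and dre-mir-30c, from another chromosome, a ratio of 2.47. The 3 miR-30 hairpins thus all had ratios above 1, where 64 of all 100 entries did, and 1 was called, against 27 of 100. All 3 stayed above 1 under the 4 other scalings. With TMM dre-mir-30b and dre-mir-30c came near 1, with log2 ratios of 0.261 and 0.105, where 38 of 100 entries lay above 1.

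The entry dre-mir-21-1 (chromosome 10, 28198894 to 28199041), of a microRNA raised in many inflamed tissues of mammals, had 261 and 103 counts, 12510 against 1194 CPM, a ratio of 10.5 (8.31 to 13.3). The keratinocyte value lay, with library totals, within the whole-embryo range of 849 to 1403 CPM. The second miR-21 hairpin, dre-mir-21-2, had 8 neutrophil and 0 keratinocyte counts and was under the minimum. The entry dre-mir-210, a microRNA induced by low oxygen in mammals, had 86 and 72 counts and a ratio of 4.94, a call that no other scaling kept.

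The entries dre-mir-192 and dre-mir-194a, which lie within 265 bases on chromosome 10 and are abundant in the liver and gut of mammals, were both higher in neutrophils. The counts of dre-mir-192 were 808 and 428, 38727 against 4961 CPM, a ratio of 7.81 (6.94 to 8.80). With TMM its log2 ratio was 1.76, under 4-fold. Those of dre-mir-194a were 14 and 1, a ratio of 57.9 (8.81 to 2448). Since dre-mir-194a entered through the neutrophil library alone, its direction was fixed by the minimum. Whole embryo held 19849 to 35321 CPM of dre-mir-192, close to the neutrophil level and above the keratinocyte level. The liver marker dre-mir-122 had 2 neutrophil and 6 keratinocyte counts, 95.9 and 69.5 CPM, against 213 to 241 CPM in whole embryo.

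The miR-15 and miR-16 clusters, which lower Bcl2 and cyclins in mammals, had 3 of 6 compared entries called higher in neutrophils and a median log2 ratio of 1.65 against 0.69 over all entries. Over all 100 entries 27 were called in that direction. With TMM or median-of-ratios 1 of 6 was called, against 14 and 17 of 100. The entry dre-mir-15c (chromosome 15, 1543686 to 1543768, in introns of schip1 and smc4) had 119 and 36 counts and a ratio of 13.7 (9.35 to 20.4). The entry dre-mir-15b had 170 and 119 counts and a ratio of 5.91, and dre-mir-16a had 13 and 13 counts and a ratio of 4.14. The exception in direction was dre-mir-457a, with 4 and 26 counts and a ratio of 0.636, but its interval of 0.161 to 1.83 held 1. It entered through the keratinocyte library alone.

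The fish cluster of dre-mir-462 and dre-mir-731 on chromosome 8 was higher in neutrophils as a pair, with 80 and 29 counts for dre-mir-462 (ratio 11.4) and 18 and 4 for dre-mir-731 (ratio 18.6, 6.13 to 75.6). Since dre-mir-731 entered through the neutrophil library alone, its direction was fixed by the minimum. The endothelial entry dre-mir-126a had 25 and 13 counts, a ratio of 7.95 (under 4-fold with TMM), and 975 to 1148 CPM in whole embryo against 1198 CPM in neutrophils. The Hox cluster entries mir196b (49 and 29 counts) and mir196c (11 and 8) had ratios of 6.99 and 5.69, both under 4-fold with TMM. Since mir196c entered through the neutrophil library alone, its call with library totals was fixed by the minimum. Of the 8 compared entries of the Hox list 2 were called higher in neutrophils, against 27 of 100. The called entries not yet given were dre-mir-27e (15 and 3 counts), dre-let-7j (12 and 3, in an intron of wdr82), dre-mir-92a-2 (19 and 9), dre-mir-1388, dre-mir-107a (40 and 27, in an intron of pank1b), dre-mir-456 (66 and 50, in an intron of ttc27) and dre-mir-301b (14 and 14). Their ratios ran from 4.14 for dre-mir-301b to 20.7 for dre-mir-27e. Of these entries, dre-mir-27e, dre-let-7j, dre-mir-92a-2 and dre-mir-1388 entered through the neutrophil library alone and so had to be called. Of all 27, 6 rested on 3 or fewer keratinocyte counts, and 25 had an interval wholly above 2-fold.

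The calls higher in keratinocytes included the whole miR-183 cluster, 3 of 3 entries, where 8 of all 100 were called. Of the 3, mir96 entered through the keratinocyte library alone, so the minimum admitted it only where it was high. Of the 26 entries admitted that way, 6 were called higher in keratinocytes. The marker dre-mir-182 was named with results known. Of the 8 called with library totals, 3 were the miR-183 cluster, 3 belonged to the miR-200 and miR-141 family, and the others were dre-mir-725 and dre-mir-22b. The 19 calls with TMM added dre-mir-200a, dre-mir-429a, dre-mir-203a, dre-mir-203b, dre-mir-143, dre-mir-199-3, dre-mir-2184, dre-mir-27b, dre-mir-10b-1, dre-mir-10b-2 and dre-mir-455-1. The entry dre-mir-182 (chromosome 4, 15075665 to 15075732) had 37789 keratinocyte and 1393 neutrophil counts, and keratinocytes were 6.56-fold higher (6.22 to 6.93). The entry dre-mir-183 (15074566 to 15074663) had 3545 and 126 counts and was 6.80-fold higher (5.70 to 8.19), and mir96 (15074715 to 15074824) had 41 and 1 counts and was 9.92-fold higher with an interval of 1.68 to 401. The cluster held 48.0% of the keratinocyte counts, 7.29% of the neutrophil counts and 16.99% ± 3.29 (SD, n = 3) of the whole-embryo counts, so as a sum neutrophils lay below and keratinocytes above whole embryo. The keratinocyte side of this sum rested on dre-mir-182. With library totals keratinocyte dre-mir-183, at 41088 CPM, lay within the whole-embryo range of 20316 to 42946 CPM. Keratinocyte mir96, at 475 CPM, lay within that of 408 to 747 CPM.

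Within the cluster the sorted libraries were alike. The entry dre-mir-183 made 0.0905 counts per count of dre-mir-182 in neutrophils (0.0748 to 0.109) and 0.0938 in keratinocytes (0.0906 to 0.0971). In the whole-embryo libraries the quotient was 0.182 to 0.310. The 2 sorted intervals overlapped each other and none of those of whole embryo. Relative to the other entries, which no scaling changes, the log2 ratio of dre-mir-182 lay 3.40 below that of the median entry.

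The miR-200 family, which in mammals keeps epithelial cells epithelial by lowering the Zeb repressors, lies in 2 clusters. On chromosome 23 dre-mir-200b had 118 keratinocyte and 2 neutrophil counts and was 14.3-fold higher in keratinocytes (3.86 to 119), dre-mir-200a had 196 and 16 counts and was 2.96-fold higher (1.78 to 5.29), and dre-mir-429a had 388 and 30 counts and was 3.13-fold higher (2.16 to 4.70). On chromosome 6 dre-mir-200c had 46 and 1 counts and was 11.1-fold higher (1.90 to 449), dre-mir-141 had 79 and 4 counts and was 4.78-fold higher (1.79 to 17.96), and dre-mir-429b had 14 and 0 counts. All 6 lay in the same direction, dre-mir-429b only by a bound of 1.13-fold, and its interval began at 0.802 and so held 1. Of the 6, 3 passed 4-fold (8 of all 100 entries did). These 3, dre-mir-200b, dre-mir-200c and dre-mir-141, entered through the keratinocyte library alone, so the minimum admitted them only where they were high. Of the 26 entries admitted that way, 6 were called higher in keratinocytes. With the 4 other scalings dre-mir-200a and dre-mir-429a passed too, 5 of 6 against 19 of 100 with TMM. With the miR-200 hairpins summed, keratinocytes had 360 counts and neutrophils 19, 4.58-fold more (2.89 to 7.70).

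The entry dre-mir-725 had 90 keratinocyte and 3 neutrophil counts and was 7.26-fold higher in keratinocytes (2.40 to 35.8), and its keratinocyte level of 1043 CPM lay below the 1436 to 1812 CPM of whole embryo. The entry dre-mir-22b had 32 and 1 counts, 7.74-fold higher (1.29 to 315), with 371 CPM in keratinocytes and 316 to 393 CPM in whole embryo. The keratinocyte value of dre-mir-22b lay within the whole-embryo range, and the neutrophil values of both entries lay below it. These places are those with library totals, and for the keratinocyte values of both entries they depend on the scaling. Of the 8 keratinocyte-high calls, 5 rested on 3 or fewer neutrophil counts, and 4 had an interval wholly past 2-fold.

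The classical skin microRNAs were divided. The entries dre-mir-203a and dre-mir-203b, known in mouse skin for stopping the division of cells that leave the basal layer, were higher in keratinocytes, under 4-fold with library totals. With the 4 other scalings dre-mir-203b was past 4-fold, and dre-mir-203a was with TMM and median-of-ratios. The entry dre-mir-203b had 653 keratinocyte and 46 neutrophil counts, 3.43-fold higher (2.54 to 4.74), and dre-mir-203a had 125 and 12, 2.52-fold higher (1.39 to 5.01). Both sorted libraries lay below whole embryo with library totals, where dre-mir-203b stood at 12357 to 15680 CPM against 7568 CPM in keratinocytes and 2205 CPM in neutrophils. For dre-mir-203b in keratinocytes this order depends on the scaling.

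In contrast dre-mir-205 (chromosome 23, 33290273 to 33290361), an epithelial microRNA of stratified skin in mammals, had 1950 neutrophil and 3817 keratinocyte counts, 93462 against 44240 CPM, a ratio of 2.11 (2.00 to 2.23). It was the third most abundant entry in neutrophils, and both sorted values lay above the whole-embryo range of 17271 to 32958 CPM. Under TMM scaling its log2 ratio was -0.12, so which library held more of it depends on the scaling. Its proportion to dre-mir-203b does not: dre-mir-205 had 42.4 counts per count of dre-mir-203b in neutrophils (31.7 to 58.1), 5.85 in keratinocytes (5.38 to 6.36) and 1.34 to 2.67 in whole embryo. Of the 10 compared entries of the epithelial list, dre-mir-205 alone had a ratio above 1 (below 1 with TMM), the other 9 lay below 1 (2 of them bounds from 0 neutrophil counts), 0 were called higher and 3 lower in neutrophils, and the median log2 ratio was -1.61. Over all 100 entries 8 were called lower. The 3 called lower here entered through the keratinocyte library alone. With TMM or median-of-ratios scaling 7 of the 10 were called lower, against 19 and 16 of 100.

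**Figure D3:**
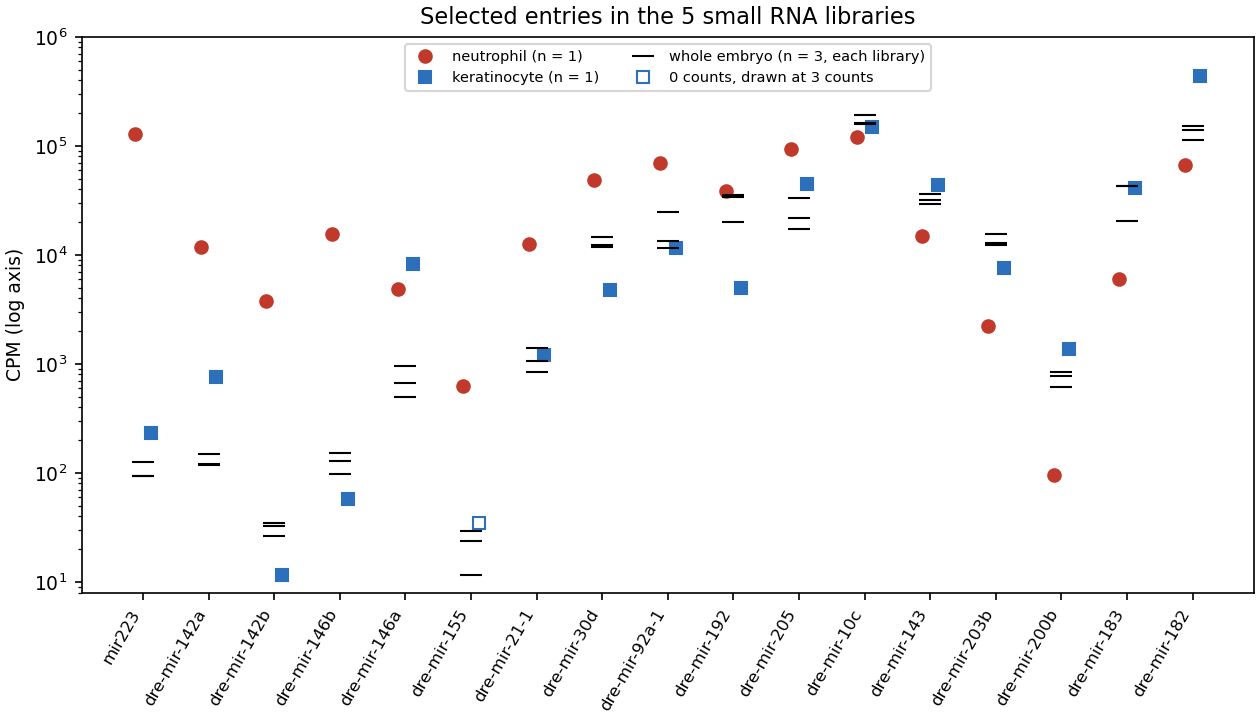
CPM on a log axis of 17 entries in the neutrophil library (red circles), the keratinocyte library (blue squares, open where 0 counts are drawn at 3 counts) and each of the 3 whole-embryo libraries (black dashes). The circle lies above all other marks for mir223, dre-mir-146b and dre-mir-205 and below them for dre-mir-200b and dre-mir-182.

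Several of the most abundant microRNAs had ratios near 1 with library totals. With TMM they lay on the keratinocyte side, with log2 ratios of -1.51 for dre-mir-10c, -1.14 for dre-mir-10a, -1.34 for mir140 and -1.46 for dre-mir-181c. The miR-10 hairpins, of a family known from the Hox gene clusters that mark position along the body axis, together held 23.3% of the neutrophil and 25.2% of the keratinocyte counts. The entry dre-mir-10c (chromosome 3, 23720651 to 23720745, in an intron of hoxb3a) had 2492 and 12734 counts, 119440 against 147591 CPM, a ratio of 0.809 (0.775 to 0.845), and whole embryo held 159510 to 192864 CPM. The entry dre-mir-10a had 1422 and 5644 counts, 68156 against 65416 CPM, a ratio of 1.04, and the keratinocyte-to-neutrophil interval of 0.905 to 1.02 held 1. The entry dre-mir-10d had 871 and 2741 counts and a ratio of 1.31. Both sorted libraries held less of dre-mir-10a and dre-mir-10d than every whole-embryo library with library totals.

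With at least 100 counts in both libraries, the entries nearest a ratio of 1 were, besides dre-mir-10a, dre-mir-10c and dre-mir-10d, the cartilage microRNA mir140 (0.911), dre-mir-181c (0.835) and dre-mir-454b (1.57). The entry mir140, in an intron of wwp2, had 292 and 1325 counts, 13995 against 15357 CPM, and both values lay above the 6321 to 7476 CPM of whole embryo. The entry dre-mir-181c had 169 and 837 counts, with 7957 to 11248 CPM in whole embryo around the sorted values of 8100 and 9701 CPM. Relative to the median entry all of these lay on the keratinocyte side, and dre-mir-10a, dre-mir-10d and dre-mir-454b changed sides under TMM and median-of-ratios scaling.

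**Figure D4:**
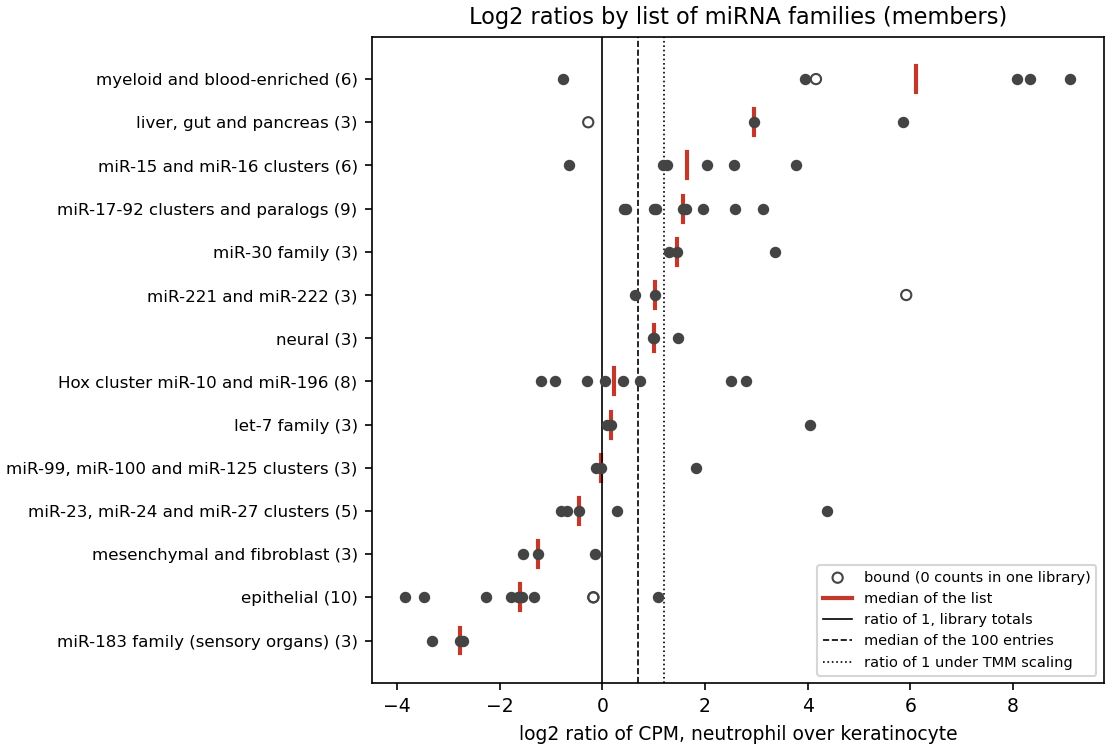
Log2 ratios of the compared entries in 14 lists of microRNA families, with the number of entries in brackets, each list's median as a red bar, and vertical lines at a ratio of 1, at the median of the 100 entries and at the point where a ratio of 1 falls under TMM scaling. The blood list lies farthest right with a median of 6.12, raised by entries admitted through the neutrophil library alone, and the miR-183 family farthest left with a median of -2.77.

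The mesenchymal list had 0 of 3 entries called with library totals, where 8 of all 100 were called higher in keratinocytes and 27 in neutrophils. Its median log2 ratio was -1.25, the value of dre-mir-199-3, against 0.69 over all entries. With TMM or median-of-ratios 2 of the 3 were called higher in keratinocytes, against 19 and 16 of 100. With either reduced total 1 of 3 was called, against 13 of 100. Its main member dre-mir-143, a microRNA of smooth muscle and fibroblasts in mammals, had 310 and 3759 counts, and keratinocytes were 2.93-fold higher (2.61 to 3.30). The entry dre-mir-199-3 lies in an intron of dnm2a on the opposite strand. It was the miR-199 hairpin that entered the comparison, through the keratinocyte library alone. It had 5 neutrophil and 49 keratinocyte counts, 240 against 568 CPM, with whole embryo at 800 to 1045 CPM. The keratinocyte-to-neutrophil ratio was 2.37, and its interval of 0.949 to 7.62 held 1 with library totals. The result depends on the scaling: the log2 ratio of -1.25 became -2.45 with TMM and -2.09 with median-of-ratios, both past 4-fold, and -1.76 to -1.79 with the reduced totals.

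The miR-27 hairpins ranged over 5.17 on the log2 scale: dre-mir-27e had 15 and 3 counts, while dre-mir-27b, the most abundant of them, had a ratio of 0.573. The upper end of this range, dre-mir-27e, entered through the neutrophil library alone and so had to be high. The vault RNA gene vtrna4 contains dre-mir-733 in an exon. That entry had 33 and 99 counts, 1582 and 1147 CPM, and both sorted values lay above the 18.8 to 47.3 CPM of whole embryo. The entry dre-mir-146a was likewise above whole embryo in both sorted libraries.

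Markers of muscle, neurons and red blood cells were lower in both sorted libraries than in whole embryo. The endothelial markers were not lower in neutrophils with library totals, an order that depends on the scaling. The endothelial hairpins dre-mir-126a and dre-mir-126b summed to 1342 CPM in neutrophils and 232 CPM in keratinocytes, against 1172 to 1365 CPM in whole embryo. The muscle microRNAs miR-1, miR-133 and miR-206, over 8 hairpins, had 8 neutrophil and 5 keratinocyte counts, 383 and 58.0 CPM, against 756 to 1249 CPM in whole embryo. The neural microRNAs miR-9 and miR-124, over 13 hairpins, summed to 7141 CPM in neutrophils and 2689 CPM in keratinocytes, against 46375 to 52205 CPM in whole embryo, and 9 and 11 of the 13 were at 0. The red blood cell microRNAs miR-144 and miR-451 stood at 144 and 104 CPM against 2019 to 2498 CPM, and dre-mir-451 was at 0 in neutrophils. In each of these lists the neutrophil sum was the higher in CPM, although for the red blood cell list, on 3 and 9 counts, the direction turned under the 4 other scalings. The part of these cells in the neutrophil-high calls was not tested. Fewer cells of a type and less RNA per cell cannot be told apart in such libraries.

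Position in the genome was not used to choose entries, and neighbours are described together here without a test of their likeness. Hairpins on 1 chromosome and strand with gaps of at most 10 kb formed 13 clusters with at least 2 compared entries, 33 entries in all. In 12 of the 13 all ratios lay on 1 side of 1, where 64 of the 100 single entries lay above 1 and 35 below. These sides are those of the ratios or bounds themselves. In such clusters the intervals of dre-mir-19c, dre-mir-20b, dre-mir-19d, dre-mir-454a and dre-mir-429b held 1. The sides of dre-mir-194a and dre-mir-731 were fixed by the minimum, since both entered through the neutrophil library alone. The median range of log2 ratios within a cluster was 1.398. The ranges do not change with the scaling, but the count of one-sided clusters does: 10 of the 13 clusters lay on 1 side with TMM, 7 with median-of-ratios and 9 with either reduced total. Neighbours may share a primary transcript, so they are not independent points. The narrowest were dre-mir-221 with dre-mir-222a, ranging over 0.39, dre-mir-19d with dre-mir-25 in an intron of mcm7, over 0.59, and the miR-183 cluster, over 0.60.

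With library totals the cluster that lay on both sides was dre-mir-15b with dre-mir-457a, within 635 bases on chromosome 7. The side of dre-mir-457a was not resolved, since the interval of its ratio, 0.161 to 1.83, held 1. In neutrophils dre-mir-15b had 42.5 counts per count of dre-mir-457a (16.3 to 158), in keratinocytes 4.58 (2.98 to 7.29) and in whole embryo 13.9 to 16.1. A second uneven pair was dre-mir-30d with dre-mir-30b, 56.5 to 1 in neutrophils (35.6 to 95.7), 15.2 to 1 in keratinocytes (10.3 to 23.3) and 14.5 to 20.5 to 1 in whole embryo. For dre-mir-192 with dre-mir-194a the quotients of 57.7 in neutrophils (34.2 to 106) and 428 in keratinocytes (76.4 to 16944) had overlapping intervals.

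**Figure D5:**
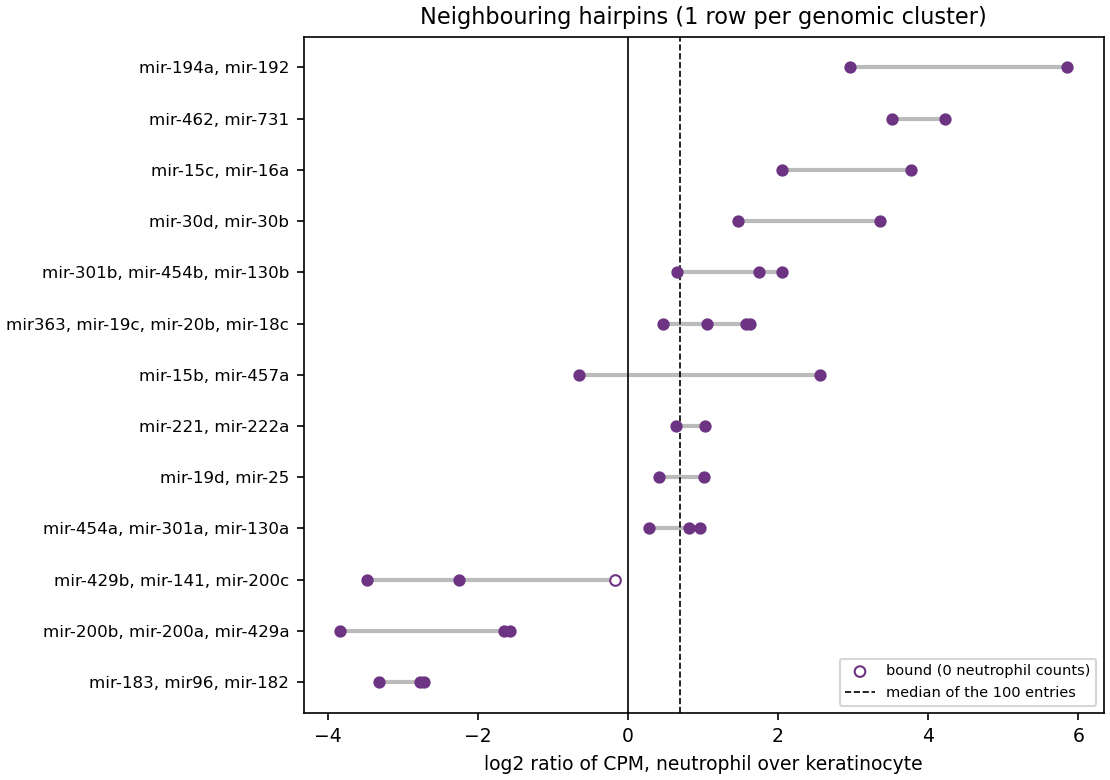
Log2 ratios of neighbouring hairpins, 1 row for each of the 13 genomic clusters, with grey bars from the lowest to the highest ratio and an open point for a bound from 0 neutrophil counts. The miR-183 and both miR-200 clusters lie wholly left of 0, and the row of dre-mir-15b and dre-mir-457a crosses it.

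Entries without a call make up the rest. Of the 65, 6 had 0 neutrophil counts: dre-mir-2184 (35 keratinocyte counts), dre-mir-1788 (17), dre-mir-375-1 (15), dre-mir-31 and dre-mir-429b (14 each) and CU929237.1 (11, for which no bound can be given). Against 3 neutrophil counts dre-mir-2184 was at least 2.82-fold higher in keratinocytes, a bound that leaves out error in the keratinocyte count. Its interval began at 2.18. The others not described had ratios between 0.440 for dre-mir-10b-2 and 3.55 for dre-mir-125c.

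Many families with several near-identical hairpins were nearly empty in all libraries. The miR-430 family had 55 entries, 0 of which were counted in a sorted library, and at most 3 counts in a whole-embryo library. Of 20 let-7 entries 3 were compared, and the family took 0.177% of the neutrophil counts, 0.0568% of the keratinocyte counts and 0.0572% ± 0.0158 (SD, n = 3) of the whole-embryo counts. The 3 miR-29 entries had 0 neutrophil and 1 keratinocyte counts. How reads that match several hairpins were counted is not given in the sources used here, so levels of multi-copy microRNAs (let-7, miR-9, miR-10b, miR-92a, miR-430 and the like) are uncertain.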

How the data were processed

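Values are raw read counts per annotated hairpin, not per mature arm, as deposited by the authors. Total RNA (mirVana) was turned into TruSeq small RNA libraries and cut from a gel, per the labels' protocols. The submitters' processing notes name bcl2fastq, STAR 2.5, featureCounts (Subread 1.5.1), edgeR 3.20.8 and GRCz11, with no order. The headers of 2 whole-embryo columns lack a replicate number, so these columns were used as whole embryo without one. Nothing says whether the whole-embryo libraries came from separate clutches, so their SD may be technical.

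Counts were divided by the total over all 431 entries (CPM). Ratio intervals are exact conditional binomial (Clopper-Pearson) and CPM intervals exact Poisson. The ratio intervals alone were checked, on simulated Poisson counts, which hold no other noise between libraries. Without molecular identifiers they cover counting error only. Alternatives were TMM (edgeR 4.0.16), median-of-ratios (DESeq2 1.42.0), other totals, count minimums and folds, under R 4.3.3, Python 3.11.15, scipy 1.17.1, numpy 2.4.6, pandas 2.3.3 and matplotlib 3.10.9. Hairpins were placed against the gene models of a deposited mRNA table.

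Members and lists were chosen with earlier results of these data known. The naming rule took both markers, the 5 most abundant entries per library, up to 12 called entries per direction by the near interval bound, the 6 nearest a ratio of 1, and the miR-142, miR-146, miR-199, miR-200, miR-203 and miR-205 families, with examples of each list. Other names were chosen after their values were seen. Mature sequences and shared seeds were not analysed here.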

Additional observations from a re-analysis of the deposited data

How the results depend on the processing

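With TMM scaling the calls were 14 higher in neutrophils and 19 higher in keratinocytes with a median log2 ratio of -0.51, and with median-of-ratios 17, 16 and -0.16. Totals without the 5 most abundant entries gave 13 higher in keratinocytes and a median of 0.15, and totals without dre-mir-182 and mir223 gave 13 and 0.17. A minimum of 5 counts moved the median to 0.92, a minimum of 20 left 17 higher in neutrophils, and any count above 0 gave 75 higher, 83 in either direction and a median of 1.26. A 2-fold threshold gave 45, 16 and 61 calls, an 8-fold threshold 15, 3 and 18, and an interval wholly past 1 gave 49, 21 and 70. Of alternatives added after the data were seen, the same CPM minimum in both libraries gave a median of 1.08, and at least 10 counts in both gave 16, 2 and 18 calls with a median of 1.02.

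Of 34 entries named by the rule, 4 changed sign under a scaling (dre-mir-205, dre-mir-10a, dre-mir-10d and dre-mir-454b), none of them called. No replicate spread exists for either sorted group, so differences between cell types and between single libraries cannot be told apart. The neutrophil depth of 20864 counts limits every low entry. No paired analysis was possible because each sorted group is 1 library.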
